A study of Homo sapiens with 6 samples.

Results

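Liver cells package triglyceride and cholesterol ester around apolipoprotein B, export the particles, and take up remnants and high-density lipoprotein (HDL) again. The 9 genes described here cover that route in HepG2 cells. MTTP, APOB, TM6SF2, SAR1B and CIDEB act in assembly and export. LIPC and LCAT encode enzymes that remodel lipoproteins in plasma, and SCARB1 and LRP1 encode receptors. They were taken by name from the 26475 genes of the deposited table, and were chosen by role with their measured difference between TAF2 and eGFP libraries already known. That difference is therefore given as a description, with no p-value. Where their side of the threshold in the fit over all genes is named, it is a description too. All 9 were among the 12902 genes that passed the filter on low counts.

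The study sequenced RNA from HepG2, an established line from a human liver tumour, labelled as hepatocellular carcinoma, that still makes plasma proteins and lipoproteins as hepatocytes do. One group of 3 libraries came from cells expressing TAF2, one of the TATA-box binding protein associated factors of the TFIID complex, which helps RNA polymerase II find its start sites. The other 3 libraries came from cells expressing the reporter protein eGFP. Cells of both groups were growing exponentially. How TAF2 or eGFP was introduced, and whether each line was a clone or a pool, is not given in the sources used here. Whether the 3 libraries of each group stem from different cultures is not stated, so every error and p-value covers only variation among these libraries, and that variation may be technical.

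In the endoplasmic reticulum, microsomal triglyceride transfer protein adds lipid to apolipoprotein B while the chain is still being made, and a chain that stays poor in lipid is degraded. Further lipid is added before the particle leaves in carriers coated by the COPII complex as very-low-density lipoprotein (VLDL). In the circulation, lipases and acyltransferases change the lipid content of lipoproteins, and receptors on the hepatocyte remove remnants and take up cholesterol ester.

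Library totals ranged from 24631251 to 28024004 expected counts in TAF2 libraries and from 22276308 to 27137862 in eGFP libraries. Levels are given in CPM, counts scaled to a common library total. TAF2 itself was at 50.1, 48.3 and 47.4 CPM in TAF2 libraries, against 35.8, 40.4 and 37.5 CPM in eGFP libraries, a log2 fold change of 0.36. All 9 hepatocyte markers passed the filter, and their summed level was 22783 to 23117 CPM in TAF2 libraries and 28868 to 29454 CPM in eGFP libraries. The sum was thus lower in every TAF2 library, but not every marker was. Mean levels were 1389 CPM in TAF2 libraries and 1123 CPM in eGFP libraries for APOA2, 91.8 CPM in TAF2 libraries and 58.9 CPM in eGFP libraries for FGB, and 63.3 CPM in TAF2 libraries and 67.7 CPM in eGFP libraries for TTR. Like TTR, the other 6 markers, ALB, AFP, TF, SERPINA1, HNF4A and AHSG, had lower means in TAF2 libraries. Leukocyte markers summed to 2236 to 2288 CPM in TAF2 libraries and 1896 to 2009 CPM in eGFP libraries, nearly all of it lysozyme (LYZ), with PTPRC and CD3E at 0. Fibroblast and stellate markers summed to 20.4 to 21.8 CPM in TAF2 libraries and 8.14 to 9.22 CPM in eGFP libraries, mostly PDGFRB, with DCN and LUM at 0. Enterocyte markers summed to 265 to 270.4 CPM in TAF2 libraries and 245 to 254 CPM in eGFP libraries, nearly all of it VIL1, with SI at 0. Endothelial markers summed to under 1 CPM in every library, with KDR and TEK at 0. The part of these marker sums in the differences below was not tested. In bulk RNA, fewer cells of a type and less RNA per cell cannot be told apart.

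MTTP, which encodes the lipid-binding subunit of the transfer protein, differed most among the 9 genes. The gene lies on the plus strand of chromosome 4, from 99564130 to 99623997 (GRCh38.p14). It was at 28.6, 28.2 and 27.8 CPM in TAF2 libraries, against 122, 115 and 124 CPM in eGFP libraries. The 3 TAF2 libraries were within 1 CPM of each other and far below all eGFP libraries. Mean levels were 28.2 ± 0.407 CPM in TAF2 libraries and 120.3 ± 4.83 CPM in eGFP libraries (SD, n = 3 each), which is 76.6% lower with a log2 fold change of -2.09 (SE 0.039). These levels rest on 706, 719 and 779 counts in TAF2 libraries and on 3318, 2551 and 3086 counts in eGFP libraries. Among the 10349 tested genes that averaged 5 CPM or more, 12 had a lower log2 fold change. Over all tested genes, 1.81% had a log2 fold change of -1 or less, and MTTP was the one gene of the 9 that did.

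**Figure D1:**
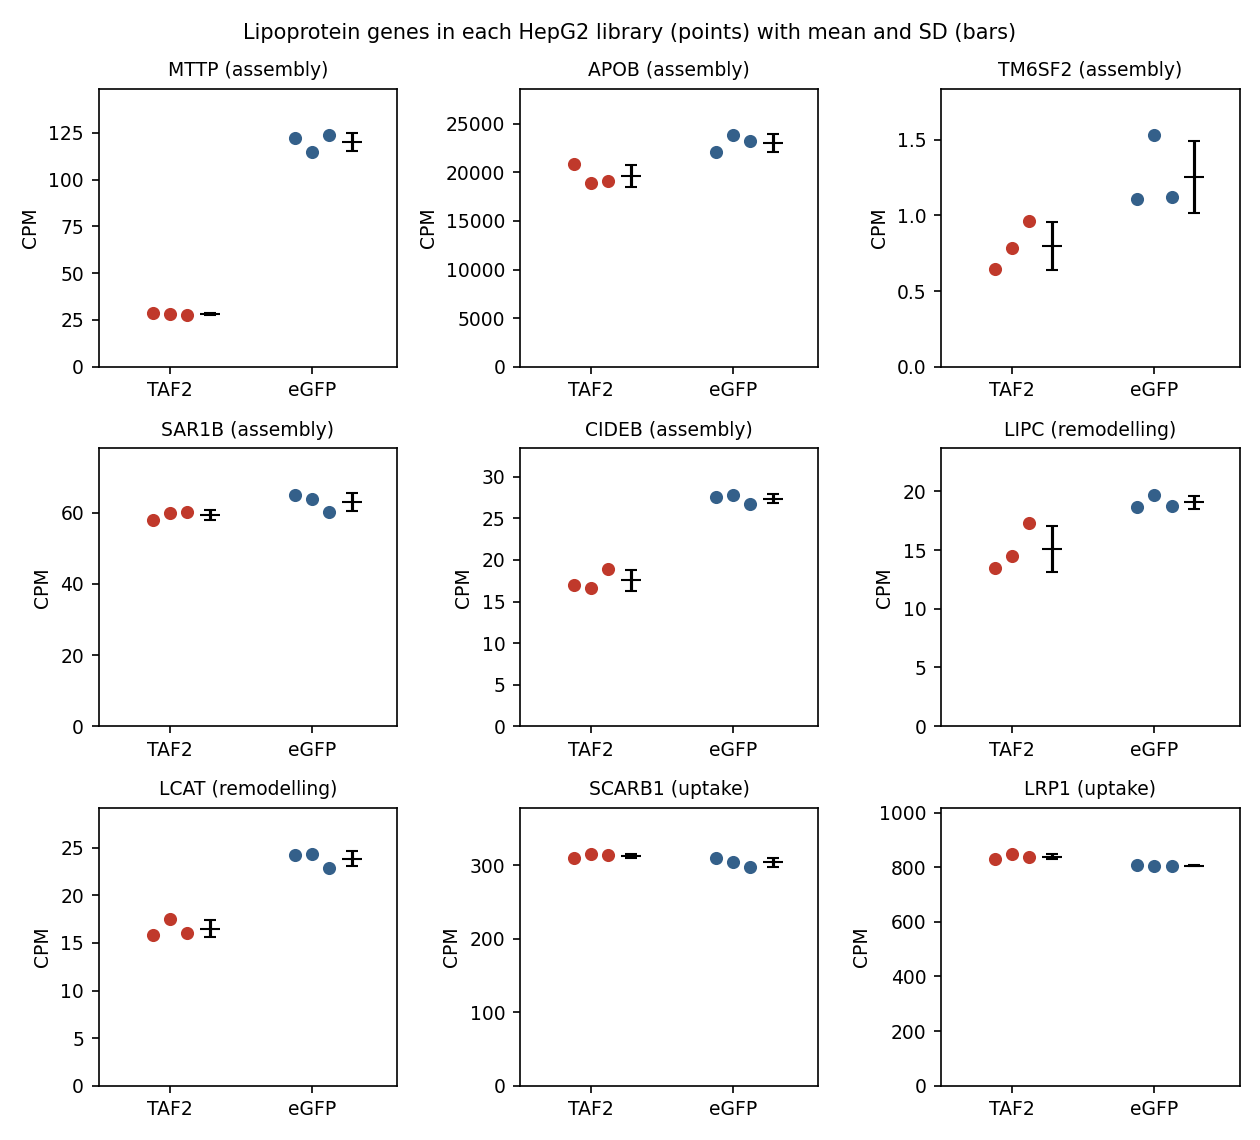
Level of each of the 9 genes in CPM (vertical axes, each from 0) in the 3 TAF2 libraries (red points) and the 3 eGFP libraries (blue points), with the mean and SD of each group as bars. MTTP lies at 27.8 to 28.6 CPM in TAF2 libraries and at 115 to 124 CPM in eGFP libraries, while SCARB1 overlaps between the groups.

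APOB encodes apolipoprotein B, the structural protein of VLDL and the acceptor of the lipid that the transfer protein delivers. It lies on the minus strand of chromosome 2, from 21001429 to 21044073. APOB was at 20915, 18890 and 19085 CPM in TAF2 libraries, against 22078, 23822 and 23187 CPM in eGFP libraries. It was lower in every TAF2 library, and the nearest libraries of the groups were TAF2 replicate 1 and eGFP replicate 1. The means were 19630 ± 1117 CPM in TAF2 libraries and 23029 ± 883 CPM in eGFP libraries (SD, n = 3 each), 14.8% lower with a log2 fold change of -0.23 (SE 0.056). No gene had more counts than APOB in any library. It took 1.89% to 2.09% of all counts in TAF2 libraries and 2.21% to 2.38% in eGFP libraries.

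Transfer protein and acceptor were not lower by the same proportion. There were 1.37, 1.49 and 1.46 MTTP counts per 1000 APOB counts in TAF2 libraries, against 5.54, 4.82 and 5.34 in eGFP libraries. The mean ratio was 1.44 ± 0.0645 in TAF2 libraries and 5.23 ± 0.373 in eGFP libraries (SD, n = 3 each). P4HB encodes protein disulfide isomerase, the other subunit of the transfer protein and an abundant enzyme of the endoplasmic reticulum. It had 2067 ± 14.1 CPM in TAF2 libraries and 2202 ± 15.2 CPM in eGFP libraries (SD, n = 3 each), with log2 fold change -0.09 (SE 0.018, edgeR quasi-likelihood adjusted p = 7.1e-05). MTTP counts per 1000 P4HB counts were 13.9, 13.6 and 13.4 in TAF2 libraries, against 55.3, 52.5 and 56.0 in eGFP libraries. The mRNA of the lipid-binding subunit was thus lower relative to both its partner and its acceptor, with no overlap between the groups.

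CIDEB encodes a lipid-droplet protein that promotes the lipidation of VLDL. It lies on the minus strand of chromosome 14, from 24305187 to 24311435. CIDEB was at 17.0, 16.7 and 19.0 CPM in TAF2 libraries, against 27.5, 27.8 and 26.8 CPM in eGFP libraries. All TAF2 libraries were lower. Means were 17.5 ± 1.23 CPM in TAF2 libraries and 27.4 ± 0.549 CPM in eGFP libraries (SD, n = 3 each), 35.8% lower with a log2 fold change of -0.64 (SE 0.060). Its position limits the reading of this value. Of 2294 exon bases of the counted transcript, 1520 lie opposite exons of NOP9 and the other 774 opposite exons of LTB4R2. NOP9 had a log2 fold change of 0.13 and LTB4R2 one of 0.57. The strand setting of the counting is unknown. If strand was ignored, reads of these genes could not be told apart by position. CIDEB counts were whole numbers in every library, whereas RSEM leaves fractions where it shares reads between genes. Whether the lower value depends on the strand setting was not tested.

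TM6SF2 encodes a membrane protein that takes part in loading VLDL with lipid. It lies on the minus strand of chromosome 19, from 19264366 to 19273301. TM6SF2 had 16, 20 and 27 counts in TAF2 libraries, against 30, 34 and 28 counts in eGFP libraries. That is 0.649, 0.785 and 0.964 CPM in TAF2 libraries, against 1.11, 1.53 and 1.12 CPM in eGFP libraries. The TAF2 libraries were lower without overlap, but with so few counts the log2 fold change of -0.62 had an SE of 0.27.

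SAR1B encodes the small GTPase that starts the COPII coat and is required for export of large lipoproteins from the intestine. It lies on the minus strand of chromosome 5, from 134601149 to 134632828. SAR1B was at 57.9, 60.0 and 60.2 CPM in TAF2 libraries, against 65.1, 63.8 and 60.3 CPM in eGFP libraries. TAF2 replicate 3 and eGFP replicate 3 were nearly equal. The log2 fold change was -0.09 (SE 0.039), and means were 59.4 ± 1.29 CPM in TAF2 libraries and 63.1 ± 2.44 CPM in eGFP libraries (SD, n = 3 each). Its paralogue SAR1A was at 86.6 ± 2.98 CPM in TAF2 libraries and 89.6 ± 2.10 CPM in eGFP libraries (SD, n = 3 each) and overlapped between the groups. Reads of the pair may be hard to tell apart, though counts of both genes were whole numbers in every library. There were 686 ± 9.24 SAR1B counts per 1000 SAR1A counts in TAF2 libraries and 704 ± 18.5 in eGFP libraries (SD, n = 3 each). This ratio overlapped between the groups, at 696 in TAF2 replicate 1 and 690 in eGFP replicate 3.

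LIPC encodes hepatic lipase, which hydrolyses triglyceride and phospholipid of remnants and HDL. It lies on the plus strand of chromosome 15, from 58431991 to 58569844. LIPC was at 13.5, 14.5 and 17.3 CPM in TAF2 libraries, against 18.7, 19.7 and 18.8 CPM in eGFP libraries. The TAF2 libraries were lower but spread more widely among themselves. Means were 15.1 ± 1.96 CPM in TAF2 libraries and 19.1 ± 0.563 CPM in eGFP libraries (SD, n = 3 each), with log2 fold change -0.33 (SE 0.074).

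LCAT encodes lecithin-cholesterol acyltransferase, the plasma enzyme that makes cholesterol ester on HDL. It lies on the minus strand of chromosome 16, from 67939750 to 67944120. LCAT was at 15.9, 17.5 and 16.1 CPM in TAF2 libraries, against 24.3, 24.3 and 22.9 CPM in eGFP libraries. No TAF2 library reached the lowest eGFP library. Means were 16.5 ± 0.914 CPM in TAF2 libraries and 23.8 ± 0.777 CPM in eGFP libraries (SD, n = 3 each), 30.8% lower with a log2 fold change of -0.53 (SE 0.062). Of its 1507 exon bases, 184 are shared on the same strand with SLC12A4, which had a log2 fold change of -0.10, and LCAT counts were not whole numbers in any library. Both enzymes were thus lower in TAF2 libraries, with 917 ± 137 LIPC counts per 1000 LCAT counts in TAF2 libraries and 799.7 ± 26.0 in eGFP libraries (SD, n = 3 each).

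The receptors did not share this direction. SCARB1 encodes scavenger receptor class B type 1, which takes up cholesterol ester from HDL, and lies on the minus strand of chromosome 12 from 124776856 to 124863864. SCARB1 was at 309, 315 and 313 CPM in TAF2 libraries, against 309.7, 304 and 298 CPM in eGFP libraries. The groups overlapped, at TAF2 replicate 1 and eGFP replicate 1, and the log2 fold change was 0.04 (SE 0.023). LRP1 encodes a large endocytic receptor for remnants that carry apolipoprotein E, and lies on the plus strand of chromosome 12 from 57128483 to 57213361. LRP1 was at 830.1, 848 and 837 CPM in TAF2 libraries, against 807, 805 and 803 CPM in eGFP libraries. It was higher in every TAF2 library by a small margin, 4.09% on the means of 838 ± 8.81 CPM in TAF2 libraries and 805 ± 2.14 CPM in eGFP libraries (SD, n = 3 each), with log2 fold change 0.06 (SE 0.020). SCARB1 counts per 1000 LRP1 counts were 373 ± 1.54 in TAF2 libraries and 377 ± 6.60 in eGFP libraries (SD, n = 3 each).

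Across the whole table, 43.0% of the tested genes passed an adjusted p of 0.05, 22.4% lower and 20.6% higher in TAF2 libraries. Of the 9 genes, 6 passed, with MTTP, APOB, CIDEB, LIPC and LCAT lower and LRP1 higher. APOB no longer passed without TAF2 replicate 2, TAF2 replicate 3, eGFP replicate 2 or eGFP replicate 3, with log2 fold changes of -0.20, -0.21, -0.20 and -0.23. LRP1 no longer passed without TAF2 replicate 2 or eGFP replicate 3, with log2 fold changes of 0.05 and 0.06. TM6SF2 passed without TAF2 replicate 3, and SAR1B without eGFP replicate 3. The groups did not overlap for 50.6% of the tested genes. Among the 9 genes, TAF2 libraries were lower without overlap for 7 (26.1% of tested genes) and higher without overlap for 1 (24.5% of tested genes). Since the genes were chosen with this contrast known, nothing is read from these counts. The median log2 fold change was -0.62 over the 5 assembly genes, -0.43 over the 2 enzymes and 0.05 over the 2 receptors, beside -0.00 over all tested genes.

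**Figure D2:**
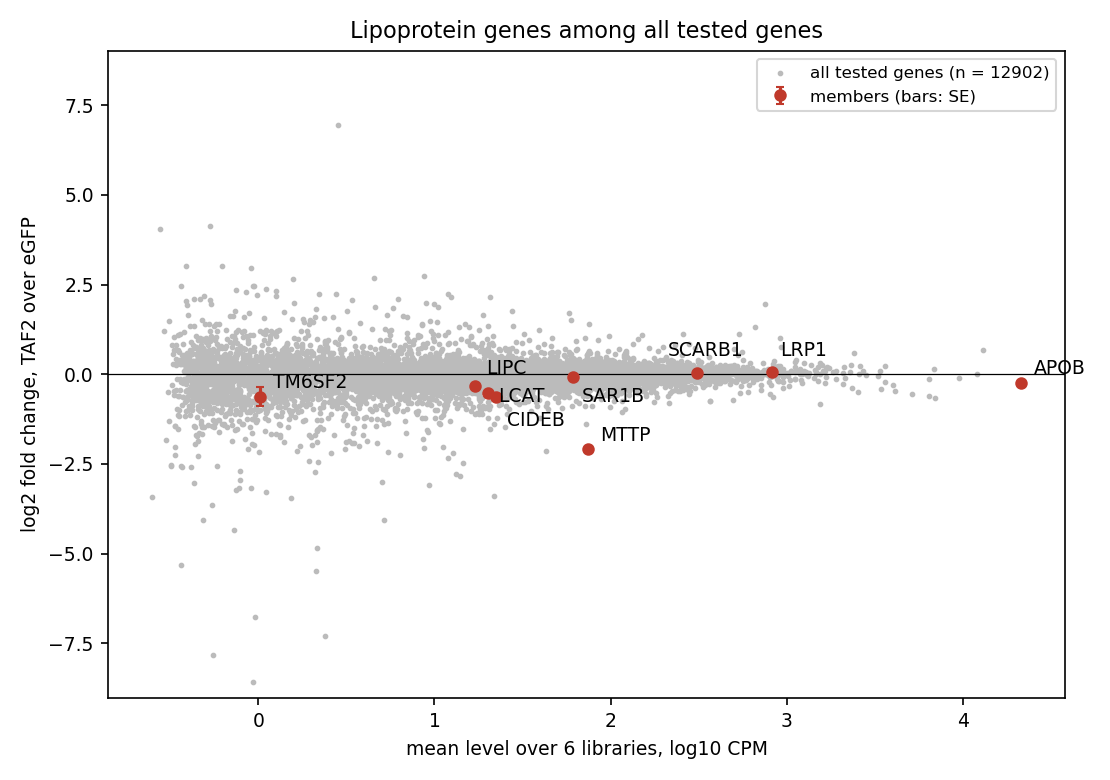
Log2 fold change of TAF2 over eGFP libraries (vertical axis) against the mean level over the 6 libraries in log10 CPM (horizontal axis) for the 12902 tested genes (grey) and the 9 lipoprotein genes (red, bars are SE). MTTP lies at -2.09, below nearly all genes of its level, and APOB lies at the far right as the gene with the most counts.

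Levels of different genes were compared per kilobase of transcript, with lengths from GENCODE release 29 transcripts paired with the deposited accessions. APOB stood first, at 1390 ± 79.1 CPM per kb in TAF2 libraries and 1631 ± 62.5 in eGFP libraries (SD, n = 3 each). SCARB1 followed at 105 ± 0.976 CPM per kb in TAF2 libraries and 102 ± 2.06 in eGFP libraries, and LRP1 at 56.3 ± 0.592 in TAF2 libraries and 54.1 ± 0.143 in eGFP libraries. The order of the first 3 was therefore the same in both groups. MTTP stood at place 6 in TAF2 libraries, with 7.79 ± 0.112 CPM per kb, and at place 4 in eGFP libraries, with 33.2 ± 1.33. SAR1B had 15.6 ± 0.339 CPM per kb in TAF2 libraries and 16.6 ± 0.641 in eGFP libraries, and LCAT had 10.9 ± 0.607 in TAF2 libraries and 15.8 ± 0.516 in eGFP libraries. These 2 genes were both below MTTP in eGFP libraries and above it in TAF2 libraries. CIDEB had 7.65 ± 0.538 CPM per kb in TAF2 libraries, which does not differ from MTTP there beyond the spread, and 11.9 ± 0.239 in eGFP libraries. SAR1B and LCAT were likewise not separated beyond the spread in eGFP libraries. LIPC, at 5.48 ± 0.712 CPM per kb in TAF2 libraries and 6.93 ± 0.205 in eGFP libraries, and TM6SF2, at 0.531 ± 0.105 in TAF2 libraries and 0.832 ± 0.159 in eGFP libraries, closed the order in both groups.

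MTTP lies on a chromosome whose genes were mostly lower in TAF2 libraries. Of 355 tested genes of at least 5 CPM on chromosome 4, 317 had a negative log2 fold change, and their median was -0.18. The 5 nearest such genes on each side of MTTP all passed the threshold as lower, with log2 fold changes between -0.51 and -0.09 and a median of -0.20. The lowest was ADH6, an alcohol dehydrogenase gene, at -0.51 (SE 0.042, edgeR adjusted p = 2.3e-13). TRMT10A, a tRNA methyltransferase gene and the nearest of them on the upstream side, was at -0.37 (SE 0.11, edgeR adjusted p = 0.0046). The other 8 were METAP1, ADH5, ADH4, LAMTOR3, DNAJB14, H2AFZ, PPP3CA and NFKB1, between -0.27 and -0.09. The value of MTTP was -1.92 from the median of its chromosome. The other 8 lipoprotein genes lie on chromosomes with medians between 0.00 and 0.04.

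**Figure D3:**
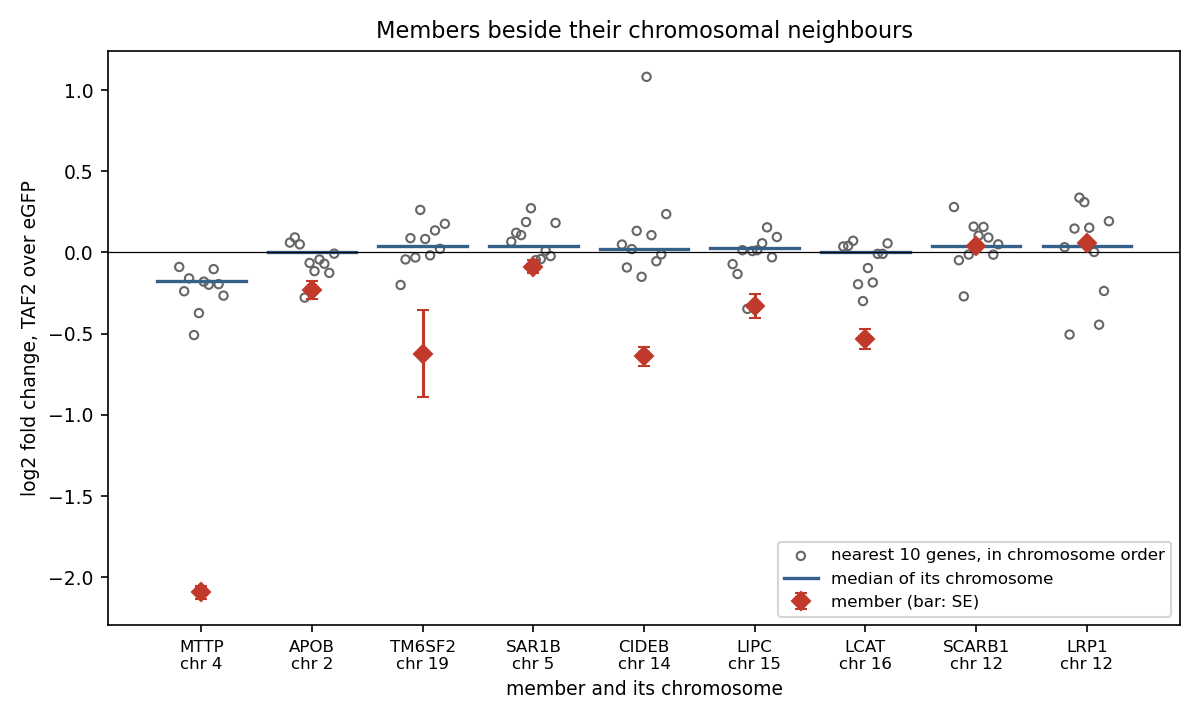
Log2 fold change of TAF2 over eGFP libraries (vertical axis) of each lipoprotein gene (red diamonds, bars are SE), of the 10 nearest tested genes of at least 5 CPM (open circles, in chromosome order) and of the median gene of its chromosome (blue lines). MTTP at -2.09 lies far below its neighbours, which span -0.51 to -0.09, and LTB4R beside CIDEB lies at 1.08.

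The neighbours of LCAT had a median of -0.01 and a range of -0.30 to 0.07, all above LCAT at -0.53, and the 4 of them that passed the threshold were all lower in TAF2 libraries. Those of TM6SF2 ranged from -0.20 to 0.26, all above TM6SF2 at -0.62. APOB lay within the range of its neighbours, which was -0.28 to 0.09 with a median of -0.05. LIPC also lay within that of its own neighbours, -0.35 to 0.15 with a median of 0.01. Only HS1BP3-IT1, at -0.28, lay below APOB, and only CGNL1, at -0.35, lay below LIPC. The neighbours of CIDEB ranged from -0.15 to 1.08. LTB4R, a leukotriene B4 receptor gene next to CIDEB, was the highest of them at 1.08 (SE 0.11, edgeR adjusted p = 1.8e-11). SAR1B, at -0.09, lay just below its neighbours, which ranged from -0.05 to 0.27, and the 5 of them that passed were all higher in TAF2 libraries. SCARB1 and LRP1 lay inside the ranges of their own neighbours, -0.27 to 0.28 for SCARB1 and -0.51 to 0.34 for LRP1.

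Sequences around the start sites are shown for MTTP, which carries the largest difference and has 2 RefSeq starts, and for LIPC, the other gene with several motif matches. RefSeq windows of GRCh38.p14 run from 250 bases before to 50 bases after a start and were found for MTTP, CIDEB, LIPC, TM6SF2, SAR1B and LRP1. Windows for APOB, LCAT and SCARB1 were not used here. The counted MTTP transcripts begin in the upstream window, chr4:99563880-99564179 on the plus strand, and the second RefSeq start has the window chr4:99574574-99574873 on the plus strand. The LIPC window is chr15:58431741-58432040 on the plus strand. Capitals mark matches, on either strand, to the motifs given after the sequences.
MTTP upstream start: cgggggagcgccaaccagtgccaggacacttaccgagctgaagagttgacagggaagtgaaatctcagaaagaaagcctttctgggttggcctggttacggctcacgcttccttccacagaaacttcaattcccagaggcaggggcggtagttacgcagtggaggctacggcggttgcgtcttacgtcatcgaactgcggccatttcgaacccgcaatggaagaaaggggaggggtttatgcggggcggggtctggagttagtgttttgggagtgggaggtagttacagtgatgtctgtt
MTTP downstream start: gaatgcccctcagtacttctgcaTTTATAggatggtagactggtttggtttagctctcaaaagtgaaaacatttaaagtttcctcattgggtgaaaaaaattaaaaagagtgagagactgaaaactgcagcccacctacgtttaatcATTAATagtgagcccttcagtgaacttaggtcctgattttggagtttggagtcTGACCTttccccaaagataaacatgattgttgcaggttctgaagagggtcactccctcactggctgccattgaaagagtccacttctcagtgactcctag
LIPC start: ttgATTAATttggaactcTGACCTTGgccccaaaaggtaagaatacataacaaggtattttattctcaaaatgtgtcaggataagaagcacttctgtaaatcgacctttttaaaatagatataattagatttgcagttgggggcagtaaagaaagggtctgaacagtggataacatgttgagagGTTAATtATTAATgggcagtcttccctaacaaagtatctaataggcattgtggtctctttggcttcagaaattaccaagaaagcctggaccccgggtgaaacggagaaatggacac

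Each window was searched on both strands for the TATA box (TATAAA), an HNF1 core (GTTAAT), an HNF4A core (CAAAGTC), an NR5A2 core (CAAGGTC), FOXA sites (TGTTTAC and TGTTTGC), a CEBP core (TTGCAA), an SREBP core (CACCCCA), a nuclear receptor core (AGGTCA) and the run ATTAAT, which reads the same on both strands. The last pair was added after the sequences had been read. The upstream MTTP window held no match to any of them. In the downstream MTTP window the TATA box lay 227 bases upstream of the start and the nuclear receptor core 50 bases upstream, both on the opposite strand, and ATTAAT lay 103 bases upstream. The LIPC window held the HNF1 core 66 bases upstream, ATTAAT at 59 and 247 bases upstream, and the NR5A2 core 231 bases upstream on the opposite strand, overlapping the nuclear receptor core at 232. Of all 35116 RefSeq windows, 11.5% held the TATA box, 6.88% the HNF1 core and 3.36% the NR5A2 core. The nuclear receptor core was in 13.8% of windows and ATTAAT in 4.78%. For the other motifs, the shares were 3.37% for the HNF4A core, 3.42% and 3.89% for the FOXA forms, 5.51% for the CEBP core and 8.08% for the SREBP core. The windows of TM6SF2 and LRP1 held no match, SAR1B held the SREBP core 220 bases upstream, and CIDEB held the HNF4A core 53 bases upstream of its other start, not the start of the counted transcript. Gene-level counts do not tell which start was used, and a match is a description of letters only.

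Other genes of the route were grouped into 8 lists, chosen by role with earlier results of these data known. Counts by list are therefore a description. Tests of these genes were adjusted over all tested genes, of which 22.4% fell and 20.6% rose around a median log2 fold change of -0.00. Of 17 tested lipidation genes, 13 fell and 1 rose, with a median log2 fold change of -0.30. CES1, a carboxylesterase that hydrolyses stored lipid, rose to 359 ± 7.56 CPM in TAF2 libraries, against 198 ± 1.37 CPM in eGFP libraries (SD, n = 3 each; edgeR adjusted p = 2.3e-29 at a log2 fold change of 0.86, SE 0.024), although a near-identical pseudogene leaves its counts uncertain. CES2, a related esterase, fell by 0.45 on the log2 scale (edgeR adjusted p = 2.4e-17). DGAT2, which makes triglyceride, fell to 55.2 ± 1.84 CPM in TAF2 libraries, against 76.0 ± 2.52 CPM in eGFP libraries (SD, n = 3 each; edgeR adjusted p = 1.7e-13 at a log2 fold change of -0.46, SE 0.038). SOAT2, which makes cholesterol ester in hepatocytes and enterocytes, fell to 35.0 ± 0.811 CPM in TAF2 libraries, against 50.6 ± 2.63 CPM in eGFP libraries (SD, n = 3 each; edgeR adjusted p = 4.3e-13 at a log2 fold change of -0.53, SE 0.046). DGAT2 lies on chromosome 11, whose genes, like those of chromosome 4, were mostly lower in TAF2 libraries (median log2 fold change -0.27). Leaving out both chromosomes, 11 of 15 lipidation genes fell and 1 rose.

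Genes of the COPII coat and endoplasmic reticulum exit had no common direction, with 4 of 20 tested genes higher and 4 lower. SEC31A and SEC24D on chromosome 4 fell by 0.22 and 0.21 on the log2 scale, and SEC13, an outer coat protein on chromosome 3, fell by 0.19 (edgeR adjusted p = 4.3e-11, 7.1e-08 and 3.9e-08). SEC16A, a scaffold of exit sites, rose by 0.13 (edgeR adjusted p = 2.5e-05). Of 19 tested genes of apolipoprotein B quality control and degradation, 5 rose and 4 fell. The chaperone genes HSP90AA1 and HSPA5 rose by 0.17 and 0.11 (edgeR adjusted p = 1.1e-08 and 1.6e-05). SYVN1, a ubiquitin ligase gene of the endoplasmic reticulum on chromosome 11, fell by 0.29, and UBXN4 fell by 0.14 (edgeR adjusted p = 1.4e-09 and 4.0e-05). All changes in these 2 lists were smaller than a log2 value of 0.5.

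Of 12 tested exchangeable apolipoprotein genes, 10 fell and 1 rose, with a median log2 fold change of -0.42, and 4 of the 12 lie on chromosome 11. APOA1, the main protein of HDL, fell to 1119 ± 14.5 CPM in TAF2 libraries, against 1976 ± 44.1 CPM in eGFP libraries (SD, n = 3 each; edgeR adjusted p = 2.6e-31 at a log2 fold change of -0.82, SE 0.020). APOC3, which inhibits triglyceride clearance, fell by 1.21 (SE 0.047, edgeR adjusted p = 3.1e-24), and APOA5, which promotes it, fell by 1.03 (SE 0.048, edgeR adjusted p = 2.1e-21). These 3 genes lie on chromosome 11. APOH, on chromosome 17, fell to 654 ± 11.4 CPM in TAF2 libraries, against 1008 ± 17.3 CPM in eGFP libraries (SD, n = 3 each; edgeR adjusted p = 1.8e-26 at a log2 fold change of -0.62, SE 0.021). Outside chromosomes 4 and 11, 6 of 8 apolipoprotein genes fell and 1 rose. The 1 that rose was APOA2, an HDL protein named here after its value was seen, which is also a hepatocyte marker (edgeR adjusted p = 1.7e-16 at a log2 fold change of 0.31, SE 0.020). The part of the lower hepatocyte marker sum in these changes was not tested.

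Few plasma lipases and transfer proteins were measurable. Of 17 listed, 9 were tested, with 3 higher and 2 lower. FURIN, a protease that cleaves several plasma lipases and their inhibitors, rose by 0.29 (edgeR adjusted p = 5.0e-10), and PLTP, the phospholipid transfer protein gene, rose by 0.15 (edgeR adjusted p = 0.0073). ANGPTL4, an inhibitor of lipoprotein lipase, fell to 9.49 ± 0.621 CPM in TAF2 libraries, against 15.1 ± 1.44 CPM in eGFP libraries (SD, n = 3 each; edgeR adjusted p = 9.7e-09 at a log2 fold change of -0.67, SE 0.084). LMF1, which encodes a maturation factor of lipases that include hepatic lipase, fell by 0.66 (SE 0.14, edgeR adjusted p = 0.00015). Of 14 tested genes of HDL formation and cholesterol efflux, 6 fell and the other 8 did not pass the threshold. ABCA1, which loads lipid onto apolipoprotein A-I, fell to 131 ± 2.47 CPM in TAF2 libraries, against 174 ± 1.41 CPM in eGFP libraries (SD, n = 3 each; edgeR adjusted p = 4.9e-17 at a log2 fold change of -0.41, SE 0.026). ABCG8, which forms a sterol transporter with ABCG5, fell by 0.67 (edgeR adjusted p = 2.8e-09). SLC9A3R1 and NCEH1 fell by 0.15 and 0.23 (edgeR adjusted p = 5.8e-07 and 0.00066).

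Uptake receptors and their partners were divided, with 8 of 24 tested genes higher, 8 lower and a median log2 fold change of -0.01. DESeq2 passed 10 of these genes rather than 16, and edgeR passed 12 to 14 when single libraries were left out. LRP4, SORL1 and LRP5, all endocytic or signalling receptors encoded on chromosome 11, fell by 0.88, 0.47 and 0.35 (edgeR adjusted p = 6.1e-20, 2.5e-19 and 3.3e-17). ANXA2, which encodes the membrane-binding protein annexin A2, rose to 141 ± 3.74 CPM in TAF2 libraries, against 96.9 ± 5.81 CPM in eGFP libraries (SD, n = 3 each; edgeR adjusted p = 1.7e-13 at a log2 fold change of 0.53, SE 0.034). ANXA2 counts were not whole numbers in any library, which RSEM leaves where it shares reads between genes. Outside chromosomes 4 and 11, 8 of 20 rose and 4 fell.

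Transcription regulators of lipoprotein genes fell more often than they rose, 13 against 5 of 28 tested, with a median log2 fold change of -0.09. NR5A2, a nuclear receptor of hepatocytes, fell to 3.95 ± 0.353 CPM in TAF2 libraries, against 19.8 ± 1.04 CPM in eGFP libraries (SD, n = 3 each; edgeR adjusted p = 6.6e-24 at a log2 fold change of -2.33, SE 0.092). CREB3L3, a liver transcription factor activated by cleavage of its membrane-bound precursor, fell to 7.07 ± 0.763 CPM in TAF2 libraries, against 17.5 ± 0.696 CPM in eGFP libraries (SD, n = 3 each; edgeR adjusted p = 1.1e-16 at a log2 fold change of -1.30, SE 0.085). PPARA, a fatty acid-sensing nuclear receptor, fell by 0.47 (edgeR adjusted p = 8.9e-15). Outside chromosomes 4 and 11, 12 of 26 regulators fell and 5 rose.

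**Figure D4:**
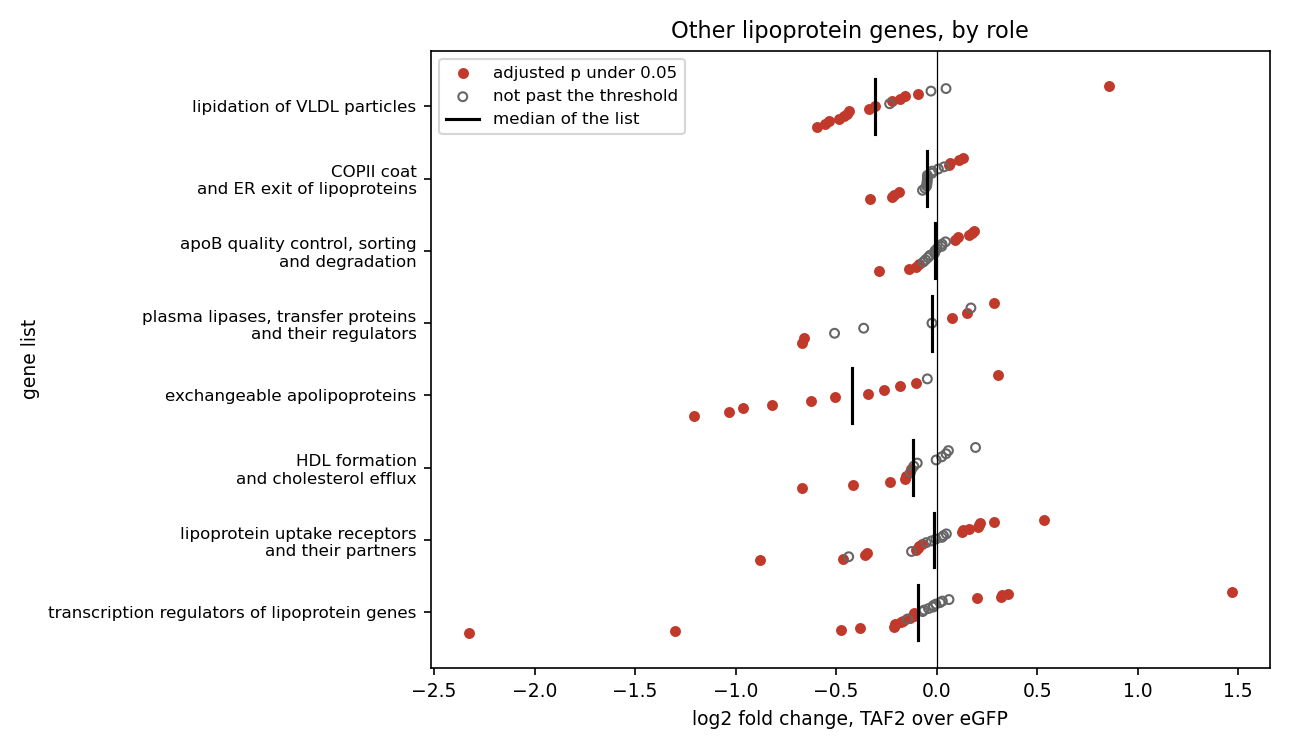
Log2 fold change of TAF2 over eGFP libraries (horizontal axis) of the tested genes of each list (rows), filled where the adjusted p is under 0.05, with the list's median as a black bar. The medians of the lipidation and apolipoprotein lists lie at -0.30 and -0.42, and NR5A2 lies lowest in the regulator row at -2.33.

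Levels across the 6 libraries were compared with those of MTTP for 10348 other genes of at least 5 CPM, as Pearson's r of log2 CPM. The libraries fall into 2 groups, so a high r mostly restates a difference between them, and 1174 genes had r of at least 0.95. The 5 most alike were CTSD, SLC37A2, STARD10, ALDH4A1 and FREM1, the first 3 of them on chromosome 11, with log2 fold changes between -0.82 and -0.43. Among the lipoprotein genes r was 0.98 for both CIDEB and LCAT, 0.90 for APOB, 0.84 for LIPC and 0.75 for SAR1B. For the receptors r was negative, at -0.74 for SCARB1 and -0.96 for LRP1.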

How the data were processed

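Total RNA of HepG2 cells gave 6 libraries, 3 per group, by an Illumina TruSeq kit and a HiSeq3000, per the labels' protocols. The values are expected counts for each gene as the authors deposited them, beside RefSeq transcript accessions. The submitters' processing notes name RSEM and hg38. The strand setting, like the aligner and the annotation release, is not given in the sources used here. Of the deposited values, 4.18% to 4.45% per library were not whole numbers, since RSEM shares reads between genes by estimated probability.

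Expected counts were rounded, filtered by filterByExpr and scaled by TMM (factors 0.9976 to 1.003) in edgeR 4.0.16 (R 4.3.3). The quasi-likelihood test compared the groups, with Benjamini-Hochberg adjustment over 12902 genes and a threshold of 0.05. The biological coefficient of variation was 2.75%, so small differences pass. CPM used scaled library sizes. Replicates differed by more than counting error, so each library was counted once as a separate sample.

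The 9 genes and the 8 lists were chosen with earlier results of these data known. Together these are 166 genes, of which 165 were found, 1 under another symbol. In each list up to 4 genes past the threshold with the smallest p were named. Some genes that this rule names are not reported here. For position, the 5 nearest tested genes of at least 5 CPM on each side were used, and for likeness the 5 genes with the highest r with MTTP. Of tested genes, 98.2% were placed on GRCh38.p14 through RefSeq accessions. Alternatives were upper-quartile scaling, DESeq2 1.42.0, limma 3.58.1 voom, other low-count filters, a test against a 1.5-fold change, the replicate number as a block and leaving out each library. The planned comparison of the SAR1A and SAR1B proteins was not made.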

Additional observations from a re-analysis of the deposited data

How the results depend on the processing

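No log2 fold change of the 9 genes or of the 32 named listed genes changed sign under any alternative run. APOB, LRP1, TM6SF2 and SAR1B crossed the threshold when single libraries were left out, as given above. The count among the 9 genes ranged from 4 to 6 over these fits, and that over all genes from 4800 to 5288. Deviations of same-numbered libraries correlated at -0.04, -0.09 and -0.10, and no library correlated best with its own number. These values showed no pairing by replicate number. From 3 libraries per group they cannot tell whether same-numbered libraries were prepared together. With the replicate number as a block, 5250 genes passed (2489 higher, 2761 lower in TAF2 libraries), and 4 of the 9 genes, without APOB and LRP1.

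Tested against a 1.5-fold change, 373 genes passed, 153 higher and 220 lower in TAF2 libraries, among them 1 of the 9 genes, MTTP, which is a description since the 9 were chosen with this contrast known. By list, that test passed 1 lipidation gene, 4 apolipoproteins, 1 uptake gene, 3 regulators, and 0 genes of the COPII, quality control, plasma lipase and HDL lists, where edgeR without the 1.5-fold bound passed 8, 9, 5 and 6 and DESeq2 7, 8, 4 and 6. At an unadjusted p under 0.05 the stricter test passed 1 HDL gene and 0 of the other 3 lists. The lipidation gene past the adjusted 1.5-fold test was CES1, which rose, so none of the lipidation genes that fell passed it. The uptake gene was LRP4, which fell and lies on chromosome 11. Among the apolipoproteins, APOA1, APOC3 and APOA5 of chromosome 11 passed, and APOH did not (edgeR 1.5-fold test, adjusted p = 0.23). DESeq2 passed 4307 genes, and 10 uptake genes rather than 16, the cause of which was not tested. Upper-quartile scaling passed 3001 higher and 2675 lower genes, against 2662 and 2886 with TMM, and no scaling moved the median of all genes by more than 0.014. TM6SF2, at 16 to 34 counts per library, is limited by depth.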

Other observations

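Of the listed genes, 14 in the table were too low to test. Lipoprotein lipase (LPL), its anchor GPIHBP1, paraoxonase PON1, PLA2G7 and CIDEA had 0 counts in all 6 libraries. The highest value in any library was 13 counts for CETP, the cholesterol ester transfer protein gene, and 9 counts for LRP2, a large endocytic receptor. The arylacetamide deacetylase gene AADAC reached 18 counts and ABCG1, a sterol exporter gene, reached 1 count. No difference between the groups could be measured for these genes at this depth.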
